A study of Arabidopsis thaliana with 12 samples.

Results

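The CRR genes of Arabidopsis thaliana take their name from chlororespiratory reduction, the phenotype of mutants that lack activity of the chloroplast NADH dehydrogenase-like (NDH) complex. The genes described here are all those for which the platform annotation gives a probe set with a single gene symbol of the form CRR and a number. There were 5 of them among 22810 probe sets, of which 13513 had a single gene. They were CRR21 (AT5G55740, probe set 248075_at), CRR22 (AT1G11290, 262509_at), CRR28 (AT1G59720, 262907_at), CRR41 (AT1G51100, 245747_at) and CRR42 (AT5G20935, 246159_at). All 5 passed the filter on weak signals and were among the 17059 probe sets tested. In Affymetrix naming, an identifier that ends in _at without a further letter denotes probes chosen to match 1 transcript.

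The NDH complex sits in the thylakoid membrane, accepts electrons from ferredoxin and passes them to plastoquinone, and so carries part of the cyclic electron flow around photosystem I as well as chlororespiration in the dark. Some of its subunits are encoded in the plastid genome and the others in the nucleus. CRR21, CRR22 and CRR28 are nuclear pentatricopeptide repeat (PPR) proteins that are needed for C-to-U editing of plastid transcripts: CRR21 acts on ndhD, CRR28 on ndhB and ndhD, and CRR22 on ndhB, ndhD and rpoB. CRR41 and CRR42 are stromal proteins needed to assemble the hydrophilic arm of the complex. The arrays measured transcript levels, not editing or protein.

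Whole seedlings were compared in 4 groups of 3 arrays: Col-0, the wild type, and the mutant hai1-2, made in that background, each at -0.25 MPa and at -1.2 MPa. hai1-2 is an allele of HAI1 (At5g59220), a type 2C protein phosphatase of abscisic acid signalling, and is the only mutant line in the series. All seedlings grew in continuous light on agar without sugar, were 7 days old when they were moved either to fresh control plates or to plates infused with polyethylene glycol, which lowers the water potential, and were collected after 96 h. The study ran 3 independent experiments, each with all 4 groups. Arrays are named below by experiment, read from the replicate number in their titles, which do not state the experiment. The annotation used here names no probe set for HAI1, so the genotype labels were not checked by that transcript. In RNA from whole seedlings, fewer cells of a type and less RNA per cell cannot be told apart.

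Median signal lay between 195 and 212 per array, and pairs of arrays correlated at 0.915 to 0.982 on the log2 scale. Single-gene probe sets measured 6 of 18 green-tissue markers and 3 of 10 root markers, and none of these had a group mean below a signal of 16. The summed signal of the green markers was 89569 to 107166.5 on Col-0 control arrays and 59711 to 65667 on stressed Col-0 arrays, and 96160 to 119909 and 54104 to 60288 in hai1-2. The summed root markers went from 16345 to 16954 in control Col-0 to 16036 to 23401 in stressed Col-0, and from 14764 to 18260 to 20978 to 23210 in hai1-2. The root marker PYK10 made up nearly all of this sum, with a mean of 16390 in control Col-0, against 51.5 for EXPA7 and 115 for EXPA18. The ratio of 5' to 3' GAPDH signal, a sign of RNA integrity, was 0.983 to 1.02 on Col-0 control arrays, 0.756 to 0.952 on stressed Col-0 arrays, 0.850 to 1.03 on hai1-2 control arrays and 1.05 to 1.16 on stressed hai1-2 arrays. In the same order of groups, the actin ratio was lower, at 0.268 to 0.564, 0.303 to 0.564, 0.368 to 0.503 and 0.391 to 0.516. The ubiquitin ratio was 0.657 to 0.915, 0.779 to 0.980, 0.679 to 0.976 and 0.786 to 0.892. The part of these differences in the results below was not tested.

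**Figure D1:**
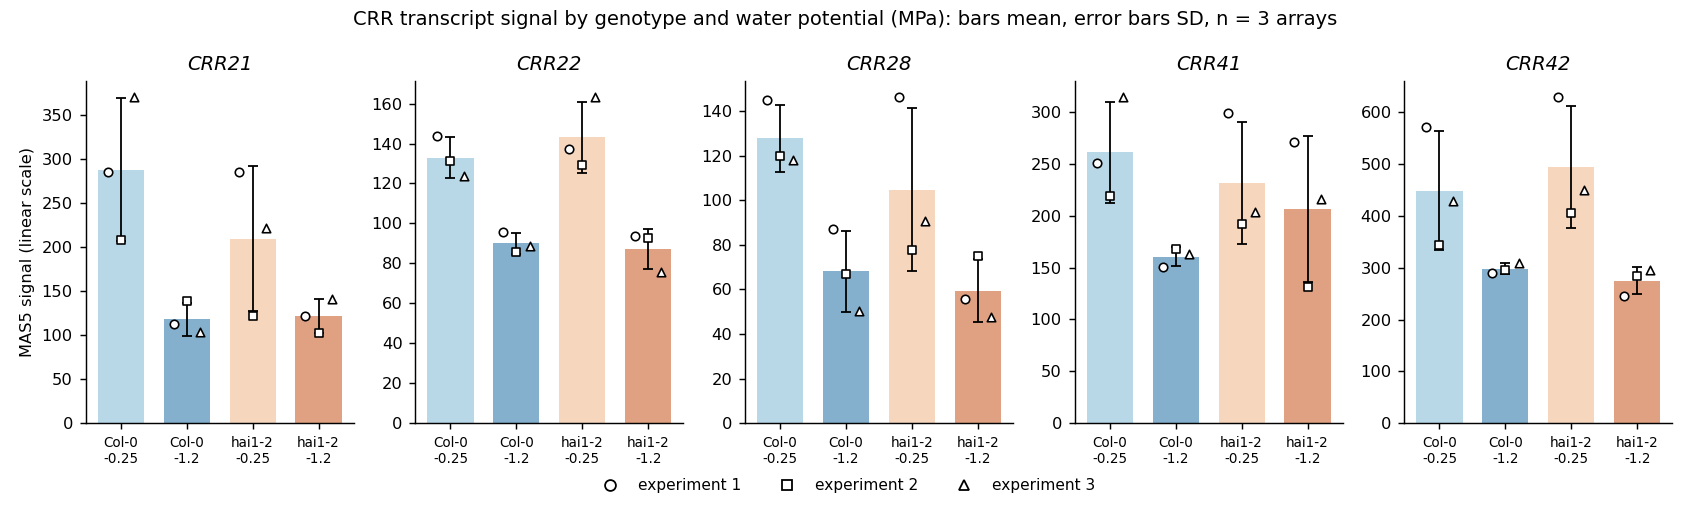
Signal of the 5 CRR genes on the linear MAS5 scale, 1 panel per gene with its own axis, by genotype and water potential in MPa. Bars show the mean of 3 arrays, error bars the SD and symbols the 3 experiments; in Col-0 every stressed array lies below every control array in all 5 panels, while in hai1-2 the CRR21 and CRR41 groups overlap.

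The first question was what low water potential did to these transcripts in the wild type. CRR21, CRR22, CRR28 and CRR42 fell, 4 of the 5 genes, and CRR41 lay lower without passing the test. Among all probe sets tested, 16.1% fell and 34.2% changed in either direction. Changes of the 5 genes ran from -1.15 to -0.49 on the log2(signal + 16) scale, with a median of -0.64, against a median of 0.07 over all probe sets tested. Adding 16 before the log understates changes of weakly expressed genes. The groups did not overlap for any of the 5 genes, with the stressed arrays lower, as for 20.2% of all probe sets tested. Tests are those of limma, a moderated linear model fitted to all probe sets, two-sided and with Benjamini-Hochberg adjustment, and a call is an adjusted p under 0.05.

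Of the editing factors, CRR21 changed most in Col-0. Its signal was 285, 207 and 369.5 on the control arrays of experiments 1, 2 and 3, and 112, 139 and 103 on the stressed arrays. Even the lowest control array, that of experiment 2, lay above all stressed arrays. The mean went from 287 ± 81.1 to 118 ± 18.6 (SD, n = 3), a log2 change of -1.15 ± 0.27 (SE), or 2.22-fold lower, with adjusted p = 0.00484. Of all probe sets tested, 5.997% had a more negative change.

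CRR28, required for editing of ndhB and ndhD, had control signals of 145, 120.0 and 118 and stressed signals of 86.9, 67.1 and 50.3 in Col-0. The highest stressed array and the lowest control array, of different experiments, were clearly separated. CRR28 fell by 0.79 ± 0.25 on the log2 scale (adjusted p = 0.0238), from 128 ± 15.0 to 68.1 ± 18.3. CRR22, the editing factor with a target outside the ndh genes, had the smallest change of the 5. Its control signals were 144, 131.5 and 123.5 and its stressed signals 95.7, 85.7 and 88.7. Replicates of CRR22 lay close together, so that a change of -0.49 ± 0.17 passed (adjusted p = 0.0365), from 133 ± 10.2 to 90.0 ± 5.13.

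The assembly factor CRR42 had control signals of 571, 344 and 429 in Col-0 and stressed signals of 289, 296.5 and 309. The stressed arrays agreed to within 3.36% (coefficient of variation), while the control arrays spread by 25.5%. The change of -0.53 ± 0.20, from 448 ± 114 to 298 ± 10.0, was called just inside the threshold (adjusted p = 0.0490). CRR41, the other assembly factor, stood just outside it. Its signals were 251, 218.5 and 314 on control and 150.1, 168 and 163 on stressed arrays, a change of -0.64 ± 0.24 with adjusted p = 0.0532. CRR41 passed with experiments blocked (adjusted p = 0.0343), where the same change was set against the spread that remains after differences between experiments are removed.

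The calls in Col-0 other than that of CRR21 depended on single arrays. Leaving out the control array of experiment 1, or the stressed array of experiment 2 or of experiment 3, left 1 of the 5 genes called, and leaving out the stressed array of experiment 1 left 2. CRR22 lost its call when the control array of experiment 1 or 2, or any single stressed array of Col-0, was left out (log2 changes of -0.53 to -0.44, adjusted p from 0.0618 to 0.106). CRR28 lost it without the control array of experiment 1 or the stressed array of experiment 2 or 3 (-0.79 to -0.63, adjusted p from 0.0560 to 0.102). CRR42 lost it without any 1 of 9 arrays, all but the Col-0 control array of experiment 2 and the hai1-2 control arrays of experiments 1 and 2 (-0.56 to -0.35, adjusted p from 0.0581 to 0.193). CRR41 gained a call without the control array of experiment 2 in Col-0, that of experiment 1 in hai1-2, or the stressed hai1-2 array of experiment 1 or 2 (-0.75 to -0.64, adjusted p from 0.0244 to 0.0490). CRR21 kept its call whichever array was left out, at -1.35 to -0.96.

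**Figure D2:**
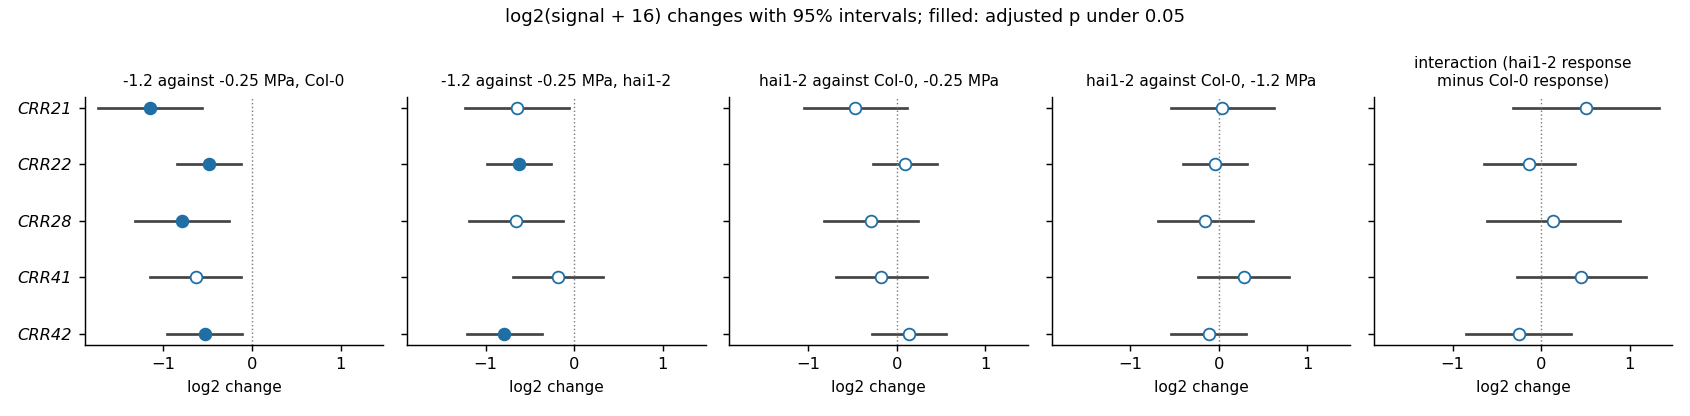
Changes of the 5 CRR genes in the 5 comparisons, as log2(signal + 16) with 95% intervals from the limma fit; filled points had an adjusted p under 0.05. Filled points occur only in the panels that compare -1.2 with -0.25 MPa, 4 in Col-0 and 2 in hai1-2, and every interval in the genotype and interaction panels includes 0.

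In hai1-2 the same comparison called 2 of the 5 genes, CRR22 and CRR42, both lower. Over all probe sets tested, 17.8% fell and 37.6% changed in either direction in the mutant. The other 3 genes had negative changes that did not pass, CRR28 at -0.66 ± 0.25 (adjusted p = 0.0512), CRR21 at -0.65 ± 0.27 (adjusted p = 0.0757) and CRR41 at -0.18 ± 0.24 (adjusted p = 0.581). The median over the 5 was -0.65, against 0.07 over all probe sets tested. The stressed arrays lay wholly below the control arrays for CRR22, CRR28 and CRR42, as they did for 23.3% of all probe sets tested, and overlapped them for CRR21 and CRR41.

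CRR42 had the largest change of the 5 in hai1-2. Signals were 628, 405 and 449 on control arrays and 245, 284 and 295 on stressed arrays, with each stressed array far below the lowest control. CRR42 fell by 0.79 ± 0.20 on the log2 scale, 1.73-fold, with adjusted p = 0.00602. CRR22 had control signals of 137, 129 and 163 and stressed signals of 93.5, 92.9 and 75.7. As in the wild type, the groups were narrow and apart, and CRR22 fell by 0.62 ± 0.17 (adjusted p = 0.00993). Both calls were kept without any single array.

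For CRR28 in hai1-2 the control signals were 146, 77.6 and 90.7, and the stressed signals 55.6, 75.0 and 47.5. Experiment 2 alone placed control and stress side by side. CRR28 passed with experiments blocked (adjusted p = 0.0357). It also passed when experiment 3's stressed Col-0 array, or either hai1-2 array of experiment 2, was left out (-0.82 to -0.66, adjusted p from 0.0347 to 0.0491). CRR21 showed a similar picture, with 285, 122 and 221.5 on control and 122, 102 and 141 on stressed arrays. Its experiment 2 control array was as low as the stressed array of experiment 1. Without that control array, CRR21 passed at -0.97 (adjusted p = 0.00902), and 4 of the 5 genes were then called.

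CRR41 was the gene with the widest stressed group in hai1-2, at 271, 132 and 216, beside 299, 192 and 203 on control plates. Its stressed array of experiment 1 lay above the control arrays of experiments 2 and 3. The log2 change of CRR41 turned to 0.004 without the control array of experiment 1 and to 0.086 without the stressed array of experiment 2, so the data give it no settled direction in the mutant.

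Scaling and the fit also moved these calls. With quantile normalization or median centring, 5 genes were called in Col-0 and 4 in hai1-2, where CRR21 and CRR28 were added with adjusted p of 0.0464 and 0.0268 under the first and 0.0497 and 0.0364 under the second. Without a filter on weak signals, CRR22 and CRR42 did not pass in Col-0 (adjusted p = 0.0613 and 0.0662), and 2 genes were called. Fitted on the 6 Col-0 arrays alone, CRR22 and CRR42 did not pass (adjusted p = 0.0813 and 0.0741) and CRR41 did (adjusted p = 0.0300). Without the variance trend, CRR42 did not pass in Col-0 (adjusted p = 0.0560) and CRR28 passed in hai1-2 (adjusted p = 0.0388).

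**Figure D3:**
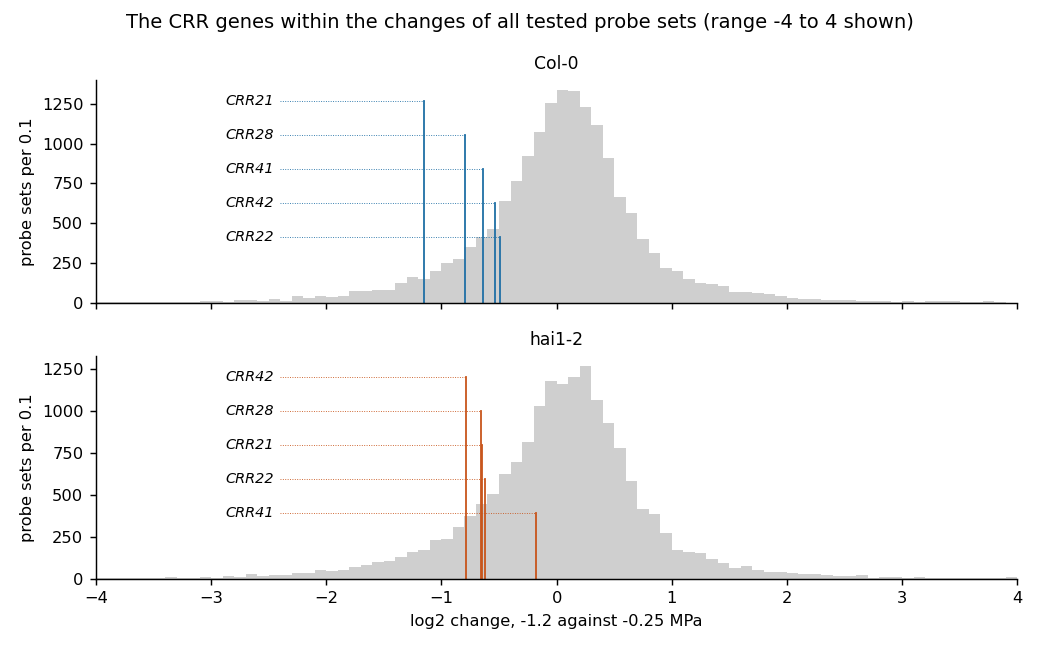
Position of the 5 CRR genes (coloured lines) in the distribution of log2 changes of all 17059 tested probe sets between -1.2 and -0.25 MPa, shown from -4 to 4 in bins of 0.1 for Col-0 (top) and hai1-2 (bottom). The CRR genes lie on the lower shoulder, from -1.15 to -0.49 in Col-0 and from -0.79 to -0.18 in hai1-2, and not in the far tail.

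The genotypes were then compared at each water potential. None of the 5 was called on control plates, where limma called 0 of the 17059 probe sets (0%) and 546 (3.2%) had an unadjusted p under 0.05. Differences between hai1-2 and Col-0 on control plates ran from -0.47 for CRR21 (95% interval -1.05 to 0.12) to 0.14 for CRR42 (-0.28 to 0.56), with unadjusted p of 0.108 to 0.590. Under stress none of the 5 was called either, with 1 probe set called in all (0.00586%). There the differences ran from -0.15 for CRR28 (-0.68 to 0.38) to 0.28 for CRR41 (-0.23 to 0.79). The narrowest interval was that of CRR22, -0.04 (-0.40 to 0.32). In both comparisons the genotypes overlapped for each of the 5 genes. Over all probe sets tested, hai1-2 lay wholly lower for 3.53% and wholly higher for 2.88% on control plates. Under stress these shares were 7.59% and 6.52%.

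That more CRR genes were called in Col-0 than in hai1-2 does not show that the genotypes responded differently. The interaction, which tests that difference, was not called for any of the 5 genes, and was called for 1 probe set (0.00586%) in all. It was 0.50 ± 0.38 for CRR21 and 0.45 ± 0.34 for CRR41, meaning a less negative change in hai1-2, and -0.26 ± 0.28 for CRR42, meaning a more negative one. Those of CRR22 and CRR28 were -0.13 ± 0.24 and 0.14 ± 0.35. Unadjusted p ran from 0.200 to 0.705 and adjusted p from 0.990 to 0.997. The intervals are wide, and that of CRR21, from -0.32 to 1.33, includes differences as large as its response in Col-0.

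Ranking the 4 groups by mean signal placed both control groups above both stressed groups for each of the 5 genes. Col-0 control came first for CRR21, CRR28 and CRR41, and hai1-2 control for CRR22 and CRR42. Neighbours within a water potential did not differ beyond their spread in any gene. The step from the lower control group to the higher stressed group was free of overlap in CRR22 and CRR42, where every control array of either genotype exceeded every stressed array. The looser condition of stressed arrays wholly lower within each genotype, which CRR28 also met, held for 15.8% of all probe sets tested. The share of probe sets that met the stricter condition was not counted. For CRR21, CRR28 and CRR41 the hai1-2 control array of experiment 2 fell within the range of the stressed arrays.

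**Figure D4:**
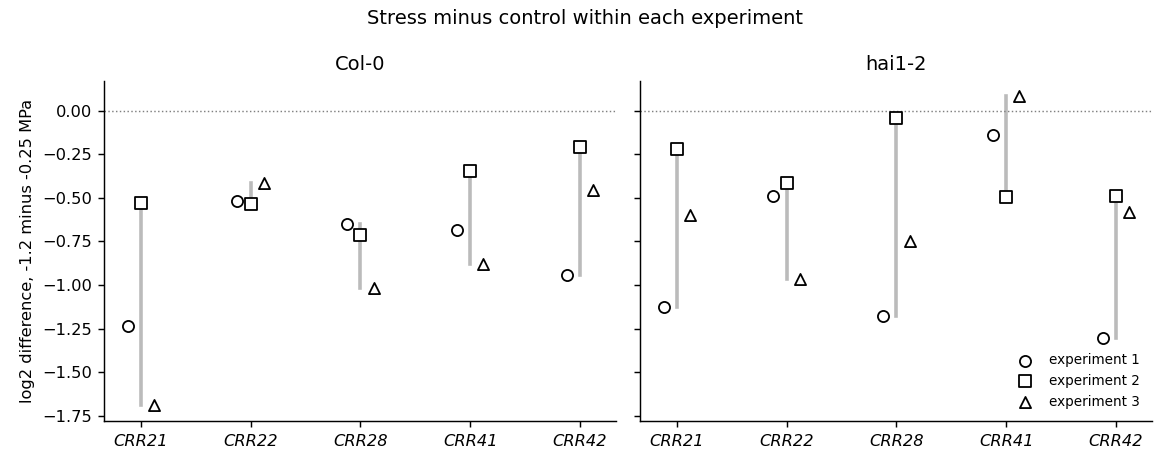
Difference between the -1.2 and -0.25 MPa arrays of the same experiment for each CRR gene, as log2(signal + 16), in Col-0 (left) and hai1-2 (right); symbols mark the 3 experiments and grey lines their range. All 15 differences in Col-0 and 14 of 15 in hai1-2 lie below 0, the exception being CRR41 in experiment 3 at 0.08.

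Within single experiments, the stressed array lay below the control array in all 3 experiments for all 5 genes in Col-0, and for 4 of the 5 in hai1-2. The genes were measured on the same arrays, so these counts are not independent. Among all probe sets tested, at least the 20.2% in Col-0 and 23.3% in hai1-2 whose groups did not overlap were also lower in every experiment. Separate groups are a stricter condition. The full share of probe sets lower in every experiment was not counted, so how unusual the CRR counts are is not shown. The size of the change differed from experiment to experiment. CRR21 changed by -1.23, -0.53 and -1.69 in experiments 1, 2 and 3 in Col-0, and by -1.13, -0.22 and -0.60 in hai1-2. CRR42 changed by -0.94, -0.20 and -0.45 in Col-0, and by -1.30, -0.49 and -0.58 in hai1-2. In both genes and both genotypes experiment 2 gave the smallest change. Its control arrays were also the lowest for CRR21, CRR41 and CRR42 in both genotypes.

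In Col-0 CRR22 did not share that pattern, with -0.52, -0.54 and -0.41, nor did CRR28, with -0.65, -0.71 and -1.02. In hai1-2 the changes of CRR22, -0.49, -0.41 and -0.97, were smallest in experiment 2, as were those of CRR28, -1.18, -0.04 and -0.75. CRR41 shared the pattern in Col-0, with -0.68, -0.35 and -0.88. In hai1-2 CRR41 did not, with -0.14, -0.50 and 0.08, where experiment 2 gave the most negative change. The mean log2 signal of the 6 green markers did not share the pattern in Col-0, where it changed by -0.70, -0.90 and -0.75. In hai1-2 the marker changes of -1.16, -0.80 and -0.998 were smallest in experiment 2. After the mean of each group was subtracted, log2 deviations of CRR21 correlated with those of CRR41 at 0.670 and of CRR42 at 0.609 over the 12 arrays, and with those of CRR22 at -0.02. Deviations of CRR28 and CRR42 correlated at 0.544. These values describe the 12 arrays, which share their experiments, and carry no test.

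**Figure D5:**
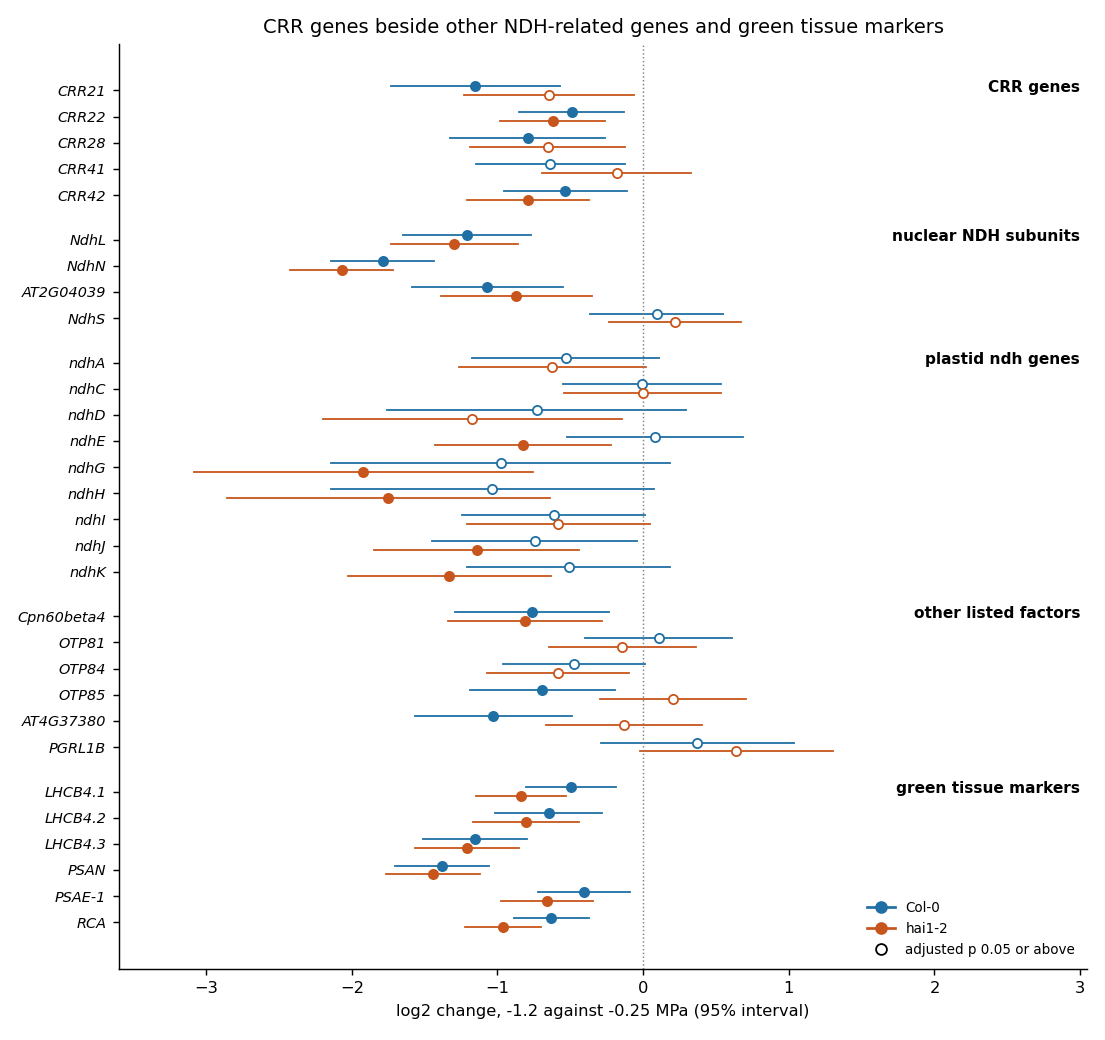
Log2 change at -1.2 against -0.25 MPa, with 95% intervals, of the CRR genes beside other NDH-related genes and green-tissue markers, in Col-0 (blue) and hai1-2 (orange); filled points had an adjusted p under 0.05. NdhN shows the most negative changes of the nuclear genes in both genotypes, and NdhS lies near 0.

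Other genes of the complex were taken from lists of loci. Single-gene probe sets measured 4 of 18 listed nuclear subunit genes, and 3 of the 4 fell in both genotypes, as did 13.4% of all probe sets tested. NdhN, a subunit of the hydrophilic arm that CRR41 and CRR42 help to assemble, went from 1793 ± 337 to 502 ± 30.3 in Col-0 and from 1887 ± 243 to 437.5 ± 53.9 in hai1-2. Its log2 changes were -1.79 ± 0.16 (adjusted p = 2.18e-06) and -2.07 ± 0.16 (adjusted p = 4.95e-07), more negative than those of any CRR gene. NdhL, a membrane subunit for which the RefSeq table also lists the name CRR23, fell by 1.21 ± 0.20 and 1.30 ± 0.20. The listed locus AT2G04039 fell by 1.07 ± 0.24 in Col-0 and by 0.87 ± 0.24 in hai1-2, where the call ended without the control array of experiment 1 (-0.61, adjusted p = 0.0504).

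NdhS, which the RefSeq table also lists as CRR31, forms the site where ferredoxin binds. Its signal was 3218 ± 734 and 3428 ± 676 in control and stressed Col-0, and 3111 ± 764 and 3556 ± 336 in hai1-2. The groups overlapped, and its changes of 0.09 ± 0.21 and 0.22 ± 0.21 were not called (adjusted p = 0.768 and 0.447). The 95% intervals, -0.36 to 0.55 and -0.24 to 0.68, exclude a fall of the size seen in NdhL or NdhN. Cpn60beta4, a chaperonin subunit required to fold the plastid-encoded subunit NdhH, fell by 0.77 ± 0.25 in Col-0 and by 0.81 ± 0.25 in hai1-2 (adjusted p = 0.0271 and 0.0185). In Col-0 its call ended without the control array of experiment 1 or 3 or the stressed array of experiment 1 or 2 (-0.79 to -0.58, adjusted p from 0.0578 to 0.105). In hai1-2 it ended without the stressed array of experiment 1 or 2 (-0.77 and -0.71). It was not called in Col-0 on the 6 Col-0 arrays alone either (adjusted p = 0.0677).

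Plastid ndh genes, some of them the targets of the CRR editing factors, were noisier. Of 11 listed, 10 had a probe set of their own, 9 of them tested. The probe set of ndhB is listed under several genes and was left out, and ndhF was too weak to be tested. In Col-0 none of the 9 was called, and in hai1-2 ndhE, ndhG, ndhH, ndhJ and ndhK fell, 5 of 9, with changes of -1.92 to -0.82, where 16.1% and 17.8% of all probe sets tested fell. The medians of the 9 were -0.62 and -1.14. ndhD, the shared target of CRR21, CRR22 and CRR28, was not called in either genotype, at -0.73 ± 0.48 and -1.17 ± 0.48 (adjusted p = 0.263 and 0.0680).

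The spread of ndhD is visible in its signals. Col-0 control arrays read 6677, 6773 and 8591.5 and stressed arrays 7094, 5082.5 and 2344, so only experiment 3 set them far apart. In hai1-2 the control arrays read 10148, 8526.5 and 5480.5 and the stressed arrays 4620, 6353.5 and 1391. Again the lowest value came from the stressed array of experiment 3. With the experiment as a block, ndhD passed in hai1-2 (adjusted p = 0.0211), and ndhH, ndhJ and ndhK passed in Col-0 (adjusted p = 0.0203, 0.0390 and 0.0340).

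The interaction was not called for any plastid ndh gene tested, so the difference in their number of calls between the genotypes is not shown to be one of response. ndhE came nearest, at -0.90 ± 0.40 (unadjusted p = 0.0396, adjusted p = 0.990). Several of these calls rested on 1 array of hai1-2. Without the control array of experiment 2 or the stressed array of experiment 3, the calls of ndhE (-0.65 and -0.64), ndhH (-1.64 and -1.11) and ndhJ (-0.997 and -0.84) ended, and that of ndhE also ended without the control array of experiment 1 (-0.74). Conversely, ndhG was called in Col-0 when the stressed hai1-2 array of experiment 3 was left out (-0.98, adjusted p = 0.0454), and with the 6 Col-0 arrays alone (adjusted p = 0.0493). In hai1-2, ndhI was called without the stressed array of experiment 1 (-0.87), and ndhD without that of experiment 2 (-1.61) or the stressed Col-0 array of experiment 3 (-1.17).

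Other factors of plastid ndh expression were 4 tested loci of 10 listed. AT4G37380 and the PPR editing factor OTP85 fell in Col-0, by 1.03 ± 0.25 and 0.69 ± 0.23 (adjusted p = 0.00582 and 0.0331), where 16.1% of all probe sets tested fell. Neither was called in hai1-2, at -0.13 ± 0.25 and 0.20 ± 0.23. On control plates hai1-2 lay wholly below Col-0 for both, at -0.83 ± 0.25 and -0.59 ± 0.23, as for 3.53% of all probe sets tested. Neither of these differences was called (adjusted p = 0.999 for both). Under stress the genotypes overlapped for both, at 0.07 ± 0.25 and 0.31 ± 0.23. OTP85 lost its call in Col-0 without any 1 of the 3 control arrays or the stressed array of experiment 1 or 3 (-0.69 to -0.63, adjusted p from 0.0633 to 0.0989). The editing factor OTP81 was not called in either genotype. OTP84, another, stood at -0.48 and -0.58 (adjusted p = 0.123 and 0.0578). Quantile normalization called it in both genotypes (adjusted p = 0.0457 and 0.0211). Median centring, no variance trend and the 6 hai1-2 arrays alone called it in hai1-2 (adjusted p = 0.0349, 0.0449 and 0.0463). It was also called in both genotypes when the Col-0 control array of experiment 1 was left out (-0.69 and -0.58). In hai1-2 it was called too without the Col-0 control array of experiment 3 (-0.58) or the stressed hai1-2 array of experiment 1 (-0.72). PGRL1B, of the antimycin A-sensitive route of cyclic electron flow, was not called, at 0.37 ± 0.31 and 0.64 ± 0.31, though it was called in the mutant without its control array of experiment 1 (0.947). No interaction was called among these genes, with 0.90 ± 0.33 for OTP85 and 0.89 ± 0.35 for AT4G37380 (unadjusted p = 0.0165 and 0.0241, adjusted p = 0.990 for both).

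Beside these changes, all 6 green-tissue markers tested fell in both genotypes, as did 13.4% of all probe sets tested, with a median of -0.64 in Col-0 and -0.90 in hai1-2. In Col-0 that median equals the median of the 5 CRR genes at 2 decimals, and in hai1-2 the CRR median of -0.65 was less negative. Single markers ranged from -1.38 for PSAN, a photosystem I subunit, to -0.40 for PSAE-1 in Col-0, so that the CRR genes lay within the markers' range there. In hai1-2 the markers ranged from -1.44 to -0.661. Only CRR42, at -0.790, lay inside that range, and CRR28, at -0.656, lay at its edge. PSAE-1 was called just inside the threshold in Col-0 (adjusted p = 0.0474), and its call ended with experiments as a block (adjusted p = 0.0612), no filter (0.0973), no variance trend (0.0792) and the 6 Col-0 arrays alone (0.0576). With quantile normalization PSAE-1 stood at -0.19 (adjusted p = 0.25) and LHCB4.1 at -0.33 (adjusted p = 0.0708), so that 4 of the 6 markers were called in Col-0. The call of PSAE-1 ended too without any 1 of 9 arrays, all but the Col-0 control array of experiment 1 and the hai1-2 control arrays of experiments 1 and 3 (-0.45 to -0.33). LHCB4.1, a light-harvesting protein at -0.49 in Col-0, lost its call without the control array of experiment 1 or 2 or the stressed array of experiment 2 (-0.46 to -0.40). Of the 3 root markers, 2 rose in Col-0 and 3 in hai1-2, where 18.1% and 19.9% of all probe sets tested rose. EXPA7 and EXPA18, expansins of root hairs, rose in both genotypes, and EXPA18 lost its call in hai1-2 without the mutant's control or stressed array of experiment 1 (0.90 and 1.05). PYK10, a beta-glucosidase of roots, stood at 0.18 in Col-0 (adjusted p = 0.333) and rose by 0.40 in hai1-2 (adjusted p = 0.0316). Which genotype had PYK10 called turned on the processing. It was called in Col-0 with quantile normalization (0.39, adjusted p = 0.0365). In hai1-2 it was not called with median centring (0.35, adjusted p = 0.0672), no filter (0.0745) or no variance trend (0.0585), nor without the control array of experiment 1 or 3 or any 1 stressed array (0.33 to 0.43, adjusted p from 0.0512 to 0.114). The part of green and root tissue shares in the CRR changes was not tested.

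For each CRR gene, the single-gene probe set with the most similar pattern was sought among 9391 others by Pearson correlation of log2 signal over the 12 arrays. For CRR42 it was AT5G62140, at 0.986, and the deviations from group means correlated at 0.985. For CRR21 it was AT2G21960, at 0.965 (0.95 for deviations), and for CRR41 it was AT3G60380, at 0.949 (0.909). For CRR22 it was AT1G11860, at 0.965, where deviations correlated at 0.684. For CRR28 it was TROL, a thylakoid rhodanese-like protein that tethers ferredoxin-NADP reductase to the membrane, at 0.948 (0.887 for deviations). TROL fell by 0.57 in Col-0 (adjusted p = 0.0396) and stood at -0.43 in hai1-2 (adjusted p = 0.110). More than 0.9 was reached by 244 probe sets for CRR22, 121 for CRR42, 33 for CRR21, 17 for CRR28 and 2 for CRR41, so the pattern of CRR41 was the least shared of the 5. The arrays share treatment and experiment, and these correlations are descriptions. Each partner was picked by its correlation over the same 12 arrays, so the correlation of deviations is no separate evidence of similarity.

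Adjacent genes in TAIR10.1 were compared after their values were seen. CRR28 overlaps AT1G59710 and CRR42 overlaps AT5G20940 in coordinates. Strand and probe positions were not compared, so whether any probe reads both genes was not tested. AT1G59710 stood at -0.56 in Col-0 and -0.65 in hai1-2 (adjusted p = 0.150 and 0.0905), and AT5G20940 was too weak to be tested. CRR41 lies between AT1G51090, which rose by 1.86 and 2.19 in Col-0 and hai1-2, and AT1G51110, which fell by 0.82 and 1.12. Neighbours on either side of CRR41 thus moved in opposite directions, and CRR41 itself was not called in either genotype.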

How the data were processed

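Each of the 12 samples was hybridised as biotin-labelled cRNA to 1 one-colour Affymetrix array. The authors deposited 1 signal intensity per probe set, on a linear scale, which per the submitters' processing notes came from MAS5. Its version, its scaling target and any filter are not given in the sources consulted. The trimmed mean signal was the same on all arrays (500.04 to 500.05 without the top and bottom 2%), so no scaling was added.

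Signals were taken as log2(signal + 16). After 64 control probe sets had been set aside, the weakest 25% of the others by mean log2 (5687, below 5.67) were dropped. limma 3.58.1, run in R 4.3.3 with data.table (version 1.17.8), fitted group means to all arrays, moderated variances along the intensity trend and adjusted p-values over the 17059 probe sets left by the Benjamini-Hochberg method. The code was tested on simulated data. Symbols follow the platform annotation, updated from RefSeq's TAIR10.1 annotation, which served for names and adjacency. Named were all CRR genes, the measured genes of the NDH lists and the most similar probe set of each CRR gene; other genes were chosen after their values were seen. The CRR genes and all lists were chosen with earlier results of these data known.

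The design text has every experiment contribute to every group, and the replicate number was read as the experiment. Same-numbered arrays deviated from their group means with correlations of 0.128 to 0.517 (control) and 0.227 to 0.263 (stress) between genotypes, and of -0.023 to 0.0929 between treatments. For arrays of different numbers these were -0.422 to 0.164, -0.136 to -0.104 and -0.153 to 0.117. Between treatments, same-numbered arrays were thus no more alike than the range of the others. The alternatives changed the added constant (1 or 64), the filter (none or 50%), the scaling (quantile or median), the variance trend, the block for experiment and the arrays included.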

Additional observations from a re-analysis of the deposited data

How the results depend on the processing

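The CRR genes called in Col-0, 4 of 5, were 2 with no filter on weak signals and 2 with the lowest 50% of probe sets removed, which left CRR41 and CRR42 to be tested, 3 without the variance trend, 3 with only the 6 arrays compared, and 1 to 5 when each array was left out. In hai1-2, 2 were called, against 4 with quantile normalization, 4 with median centring, 1 with the 50% filter, 3 without the variance trend, and 2 to 4 when each array was left out. No CRR gene was called between genotypes or for the interaction under any of these alternatives. With the experiment as a replicate block, 5 were called in Col-0 and 3 in hai1-2, adding CRR41 and CRR28, and the block changed no other CRR call. In Col-0 every CRR change stayed negative under all alternatives, CRR21 between -1.35 and -0.93, and its call held wherever it was tested. With 1 and 64 added before the log, CRR28 stood at -0.93 and -0.54 in Col-0 with its call kept.

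Directions turned in results that were not called. When each array was left out, the hai1-2 difference under stress ran from -0.062 to 0.15 for CRR21, -0.084 to 0.044 for CRR22 and -0.31 to 0.0056 for CRR28, the interaction of CRR28 from -0.028 to 0.37, the stress change of CRR41 in hai1-2 from -0.39 to 0.086, and the hai1-2 difference of CRR42 on control plates from -0.040 to 0.32. Stress changes in Col-0 ran from -0.13 to 0.15 for ndhC, -0.14 to 0.34 for ndhE, -0.034 to 0.27 for NdhS and -0.080 to 0.22 for OTP81, and in hai1-2 from -0.33 to 0.24 for ndhC, -0.28 to 0.088 for OTP81 and -0.0045 to 0.32 for OTP85. With quantile normalization ndhC stood at 0.055 in Col-0 and 0.075 in hai1-2. Over all probe sets, calls between genotypes numbered 0 to 1 on control plates and 1 to 3 under stress, with 1 and 3 under the replicate block. The causes were not tested. With 3 arrays per group, the number of arrays limits the precision.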
